A study of Homo sapiens with 24 samples.

Results

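The genes described here are 10 members of the MYC network and of 2 programmes that MYC is known to drive: MYC, its partner MAX, the antagonists MXD1, MXD4 and MNT, the polyamine enzymes ODC1, SRM, SMS and AMD1, and TERT, the catalytic subunit of telomerase. They were found by their exact symbols among the 55773 gene names of the count table. Each of the 10 matched 1 name, and each was among the 20147 names left by a filter on low counts. RNA had been sequenced from U937, a human myelomonocytic cell line, in 24 libraries that fell into 8 groups of 3. The series asks what follows when the complex of SUV39H1, G9a and GLP, enzymes that methylate lysine 9 of histone H3, is disrupted.

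The first 3 groups received DMSO, UNC0638 at 2 µM or UNC0638 at 4 µM. UNC0638 blocks the catalytic sites of G9a (gene EHMT2) and GLP (EHMT1), and the labels state a harvest after 3 days for the cells that received it. The other 5 groups carried hairpins: a scrambled control, G9a hairpins 2 and 3, and SUV39H1 hairpins 2 and 4. The targeting hairpins were delivered by lentivirus, and 3 days of puromycin selection are stated for them. A harvest time for DMSO and a selection step for the scrambled hairpin are not stated, and the promoter that drives the hairpins is not given in the sources used here. No group carries any other allele or agent per the labels. U937 is an established tumour line, so every group shares 1 origin. Nothing in the labels says that the 3 libraries of a group came from separate cultures, so each p-value below measures only the spread between these libraries, which may be technical.

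MYC is a transcription factor that binds DNA as a pair with MAX, mostly at the E-box CACGTG, and raises genes of growth, ribosome production and metabolism. MXD1, MXD4 and MNT also pair with MAX, bind the same E-box and recruit repressors, and MXD proteins typically take over as myeloid cells mature. Falling MYC with rising MXD1 is a classical picture of U937 and related lines driven towards monocytes. ODC1 makes putrescine from ornithine and is a textbook MYC target. AMD1 makes the aminopropyl donor that SRM uses to turn putrescine into spermidine and SMS to turn spermidine into spermine. TERT is silent in most somatic cells, active in tumour lines and also a known MYC target.

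The E-box is shown in its context because every protein of the network reads it. RefSeq promoters (GRCh38.p14, which differs from the hg19 build of the counts) ran from 250 bases before to 50 bases after an annotated start, and 9 of the 10 genes had an entry, with 13 promoters between them. MYC was not in that table. The motif searched was CACGTG, which is its own reverse complement, so 1 search covers both strands and no other motif was searched. It lay in the promoter of 5 genes, MNT, MXD4, ODC1, SRM and TERT, with 2 copies in ODC1. It lay in 7.26% of all 35116 promoters listed, and of 27305 symbols 8.77% had it in at least 1 promoter. The sites are printed 5′ to 3′ on the strand of the gene, each with 12 bases on either side and the E-box in capitals.
MNT, chr17:2401236-2401265, minus strand: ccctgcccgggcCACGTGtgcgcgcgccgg
MXD4, chr4:2262330-2262359, minus strand: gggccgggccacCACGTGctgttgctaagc
ODC1 upstream of the start, chr2:10448024-10448053, minus strand: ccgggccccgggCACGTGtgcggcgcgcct
ODC1 downstream of the start, chr2:10447990-10448019, minus strand: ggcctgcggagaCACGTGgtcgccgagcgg
SRM, chr1:11060200-11060229, minus strand: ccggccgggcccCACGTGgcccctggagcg
TERT, chr5:1295214-1295243, minus strand: gaccgcgcttccCACGTGgcggagggactg
The genes with the motif were split in the measurements below, with ODC1, SRM and TERT lower and MNT and MXD4 higher in most knockdown groups. A match of these letters is a description of the sequence, and their absence from the windows of MAX, MXD1, SMS and AMD1 says only that they are not in those bases.

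Levels are given in CPM, the usual depth-scaled unit, which is a gene's count divided by the total over all gene names of its library. The totals ran from 31545854 to 53803704. Changes are log2 fold changes ± SE from edgeR's quasi-likelihood test, fitted on all 20147 genes and 24 libraries with TMM scaling, and a gene passed when its Benjamini-Hochberg adjusted p was under 0.05. The fit sets the libraries of the SUV39H1 hairpins to a slightly larger effective size than the plain totals do. With scaling by plain totals the median of all genes moved up by 0.11 for the SUV39H1 mean and by 0.13 for hairpin 4, so CPM ratios there lie above the fitted folds. The targeted transcripts were low where the labels place them. EHMT2 had a mean of 140 CPM in scrambled libraries against 72.6 and 71.6 CPM with G9a hairpins 2 and 3, and SUV39H1 had 56.5 CPM against 19.3 and 22.4 CPM with its hairpins 2 and 4. With the SUV39H1 hairpins SUV39H2 (-0.92 ± 0.06), EHMT1 (-0.56 ± 0.04) and EHMT2 (-0.29 ± 0.06) fell too. With 4 µM UNC0638 the changes were -0.14 ± 0.06 for EHMT2, -0.11 ± 0.04 for EHMT1, -0.14 ± 0.06 for SUV39H1 and 0.14 ± 0.06 for SUV39H2, and none of the 4 passed.

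Over all 8 groups each of the 10 genes differed (edgeR's quasi-likelihood F test, largest adjusted p = 5.48e-05, for MNT), as did 84.7% of all genes tested. For the SUV39H1 mean MYC, the polyamine enzymes and TERT fell and the MYC antagonists rose, and the same genes passed in the same directions for the G9a mean, though not with every hairpin. The falls of MYC, ODC1, SRM and TERT were larger with SUV39H1 hairpin 2 than with hairpin 4. With the inhibitor 8 of the 10 did not pass. For the mean of both SUV39H1 hairpins all 10 genes passed, 3 higher and 7 lower, beside 67.8% of all genes. For the mean of both G9a hairpins 9 passed, 3 higher and 6 lower, beside 49.9%. Hairpin by hairpin, 7 passed with G9a hairpin 2 (beside 44.4% of all genes), 8 with G9a hairpin 3 (44.7%), 8 with SUV39H1 hairpin 2 (67.1%) and 10 with hairpin 4 (60.9%). At 4 µM UNC0638 2 passed, SMS higher and TERT lower, beside 19.9%, and at 2 µM none passed by edgeR or DESeq2, beside 7.17%, with 2 at an unadjusted p under 0.05 (TERT lower and ODC1 higher). Between scrambled and DMSO 6 passed, 5 higher and 1 lower, beside 31.4%. The G9a and SUV39H1 comparisons share the scrambled libraries and both doses share the DMSO libraries, so their values are set side by side and not correlated. For a mean of hairpins the SE comes from the spread within each hairpin group and leaves out the difference between hairpins.

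**Figure D1:**
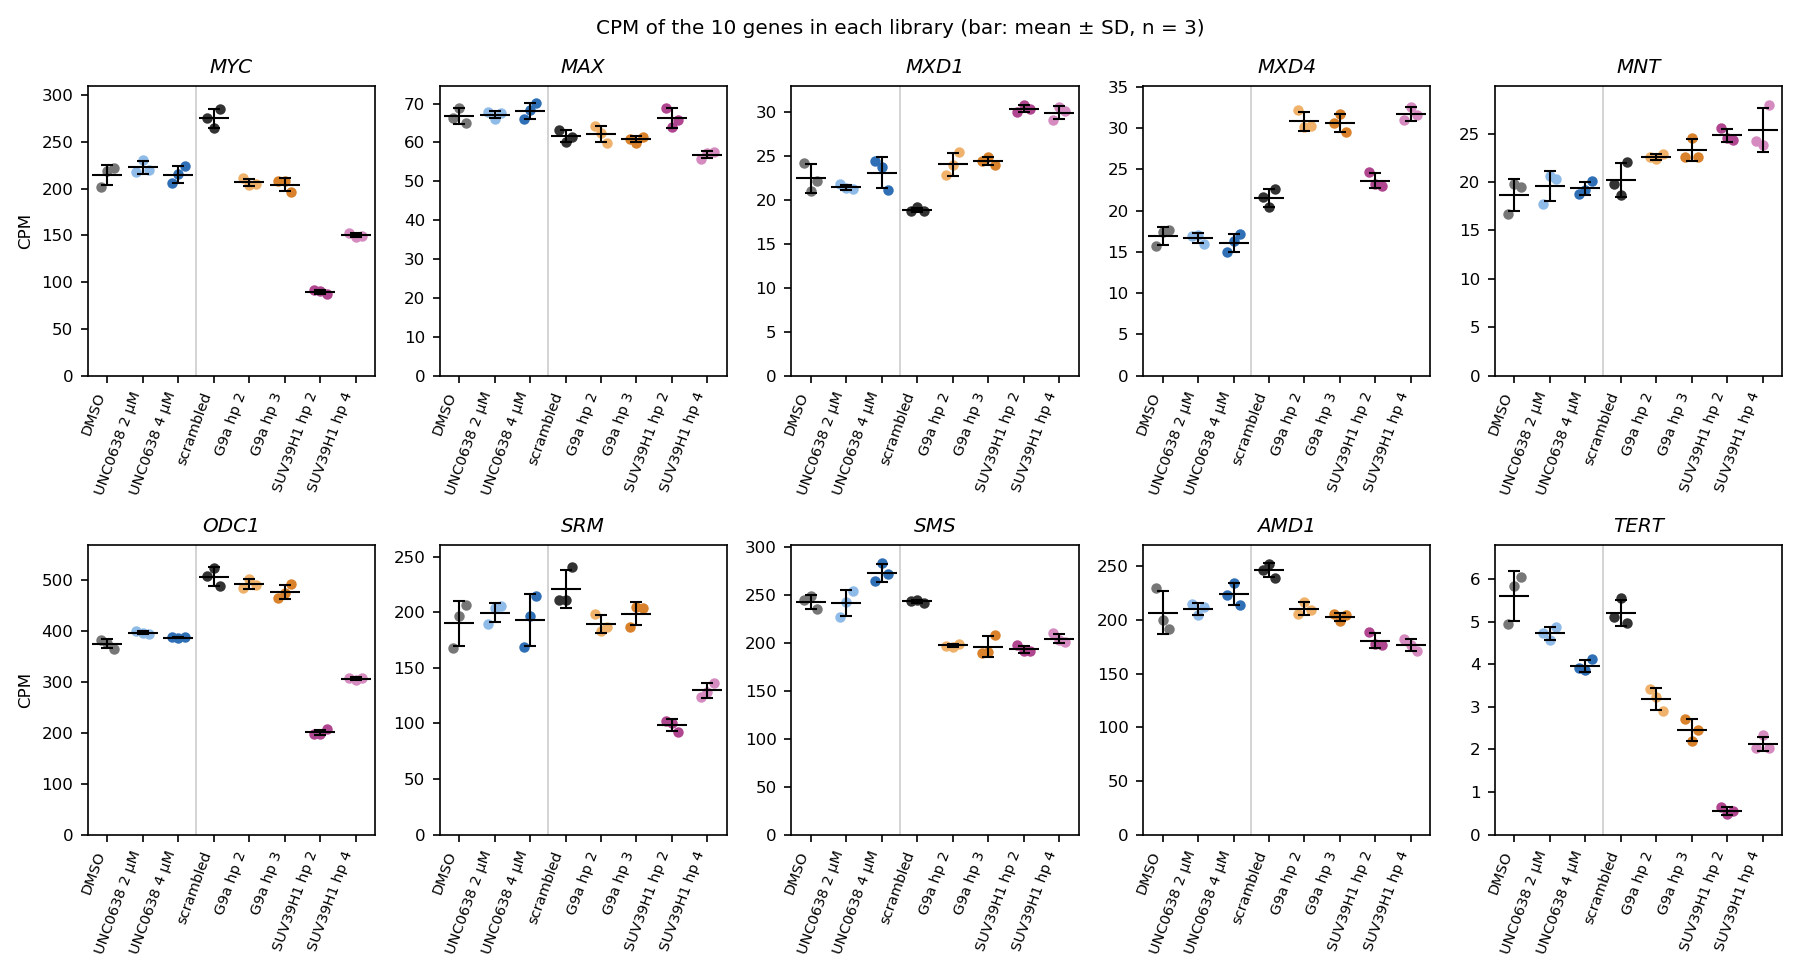
CPM of each gene in every library (points), with the group mean and SD of 3 libraries (bars), on linear axes from 0. DMSO and UNC0638 groups stand left of the grey line and hairpin groups right of it. MYC, ODC1, SRM and TERT are lowest with SUV39H1 hairpin 2, where MYC averages 89.5 CPM and TERT 0.558 CPM.

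MYC (chromosome 8, 128747680 to 128753674, plus strand, hg19, as for all coordinates of genes below) stood at 202, 219 and 222 CPM in the DMSO libraries, at 217, 231 and 220 CPM with 2 µM UNC0638 and at 206, 215 and 224 CPM with 4 µM. The ranges of these 3 groups overlap. In scrambled libraries MYC had 275, 265 and 285 CPM, in those of G9a hairpin 2 211, 204 and 206 CPM, and in those of G9a hairpin 3 209, 209 and 196 CPM. With SUV39H1 hairpin 2 it had 91.3, 90.0 and 87.1 CPM, and with hairpin 4 153, 149 and 150 CPM. Scrambled was the highest group and stood clear of all others, both G9a groups lay near the DMSO level, and the SUV39H1 groups lay below every other library and apart from each other.

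In the tests, MYC fell by 1.71 ± 0.04 on the log2 scale with SUV39H1 hairpin 2 (adjusted p = 9.46e-22) and by 0.9997 ± 0.04 with hairpin 4 (adjusted p = 1.66e-16), to 32.5% and 54.7% of the scrambled CPM. The G9a hairpins lowered it by nearly the same amount as each other, with -0.43 ± 0.04 for hairpin 2 and -0.44 ± 0.04 for hairpin 3, and the difference between them was 0.01 with a 95% interval from -0.08 to 0.09. At 4 µM UNC0638 the change was 0.01, with an interval from -0.07 to 0.10, and at 2 µM 0.05, from -0.03 to 0.14. Scrambled libraries also exceeded those with DMSO by 0.39 ± 0.04 for MYC (adjusted p = 6.73e-08), a difference about as large as the one between scrambled and the G9a hairpins. The SUV39H1 hairpins differed from each other by -0.71 ± 0.04 (adjusted p = 3.96e-13). No alternative setting or left-out library ended a call of MYC.

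**Figure D2:**
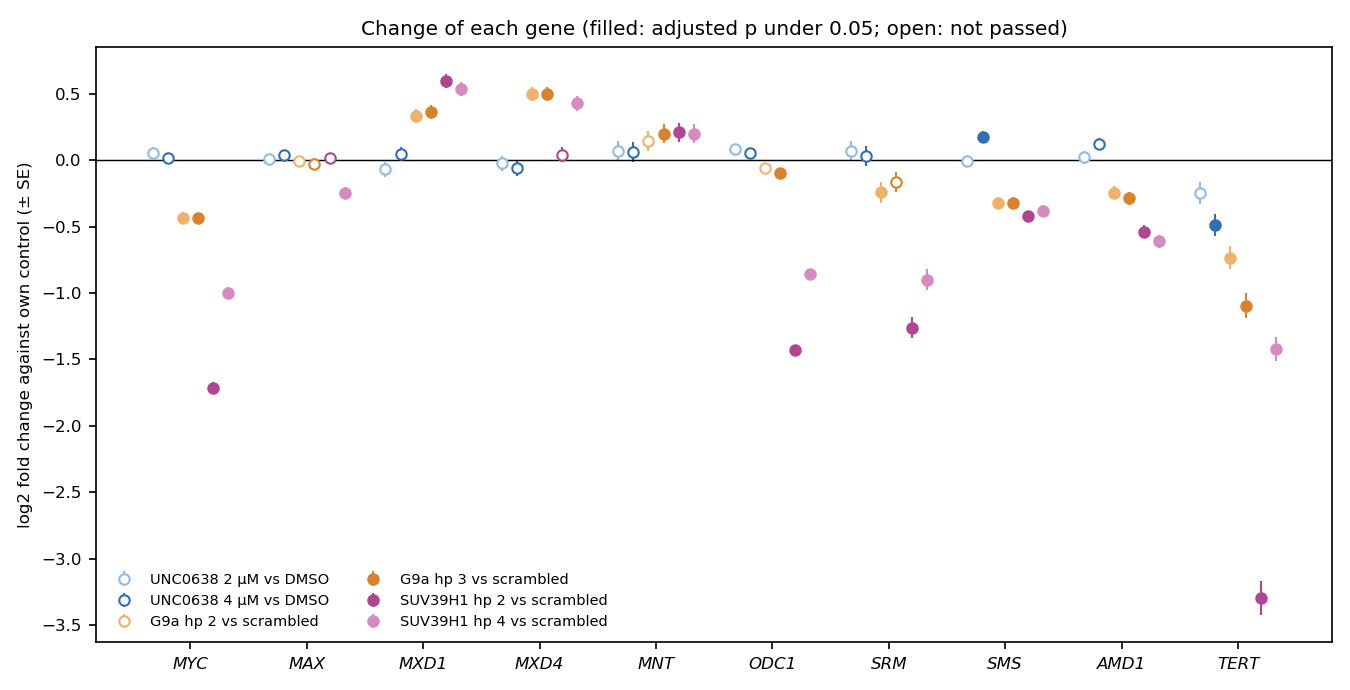
Log2 fold change of each gene against its own control (DMSO for UNC0638, scrambled for hairpins), with the SE of the fit as the bar. Filled points have an adjusted p under 0.05 and open points do not. TERT with SUV39H1 hairpin 2 lies lowest at -3.30, and the points of MYC lie at -1.71 and -0.9997 for SUV39H1 hairpins 2 and 4.

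Some markers of myeloid cells rose in the same hairpin groups. The summed level of 8 such markers (CD33, CD68, SPI1, LYZ, CSF1R, CD4, FCGR1A and MPO), none of which was at 0 in every library of a group, was 986 to 999 CPM in scrambled libraries. It was 1415 to 1453 and 1448 to 1500 CPM with G9a hairpins 2 and 3, 3329 to 3409 CPM with SUV39H1 hairpin 2 and 2114 to 2131 CPM with hairpin 4. Most of the rise was LYZ, the lysozyme of monocytes and granulocytes, which went from a mean of 460 CPM to 891, 902, 2563 and 1401 CPM in that order. With G9a hairpins 2 and 3 CD68 (31.9 and 35.0 against 16.7 CPM), CSF1R (6.91 and 7.92 against 4.37) and MPO (0.86 and 0.88 against 0.65) also lay above scrambled. CD33 (96.9 and 97.6 against 97.4 CPM), SPI1 (132 and 138 against 132), CD4 (265 and 277 against 265) and FCGR1A (14.3 and 15.1 against 14.5) stayed near it. With DMSO the sum was 889 to 919 CPM and with 4 µM UNC0638 866 to 922 CPM, though CD68 alone went from a mean of 22.4 to 37.3 CPM. Of the markers of other cells, CD3D, CD3E, MS4A1, HBB and EPCAM reached at most 0.05 CPM in any library, and COL1A1 reached up to 0.82 CPM. The part of these marker changes in the results on MYC and its antagonists was not tested, and in bulk RNA fewer cells of a type and less RNA per cell cannot be told apart.

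MAX (chromosome 14, 65472892 to 65569413, minus strand), a partner of both MYC and its antagonists, varied least. Its group means ran from 56.8 CPM with SUV39H1 hairpin 4 to 68.1 CPM with 4 µM UNC0638, and libraries from 55.7 to 70.1 CPM. With hairpin 4 it was at 55.7, 57.3 and 57.5 CPM against 63.3, 60.2 and 61.4 CPM in scrambled libraries, a fall of the fitted level by 0.24 ± 0.04 (adjusted p = 7.22e-06). With hairpin 2 the change was 0.02, with an interval from -0.06 to 0.09, and the hairpins differed from each other by 0.26 ± 0.04 (adjusted p = 6.19e-06). With the G9a hairpins together it was -0.02, from -0.08 to 0.05, and at 4 µM UNC0638 0.04, from -0.04 to 0.12. The fall for the SUV39H1 mean (-0.11 ± 0.03) rests on the scaling, since with plain library totals it was -0.0049 and did not pass, and hairpin 2 then passed as higher by 0.11. MAX shares its position with FNTB, CHURC1-FNTB and RP11-840I19.3 on the opposite strand, and the library kit does not mark strand, so reads of those genes cannot be told apart from its own where they overlap.

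The MYC antagonists rose in the knockdowns, each with its own pattern. MXD1 (chromosome 2, 70124820 to 70170077, plus strand) stood at 18.7, 19.2 and 18.8 CPM in scrambled libraries, at 22.8, 24.01 and 25.4 CPM with G9a hairpin 2 and at 24.4, 24.9 and 23.97 CPM with hairpin 3. With SUV39H1 hairpin 2 it had 30.0, 30.8 and 30.4 CPM and with hairpin 4 29.1, 30.6 and 30.1 CPM. Scrambled libraries were the lowest of all 8 groups, and the SUV39H1 groups were the highest and overlap each other. The changes were 0.35 ± 0.05 for the G9a mean (adjusted p = 7.69e-07), 0.60 ± 0.05 for SUV39H1 hairpin 2 (adjusted p = 1.79e-10) and 0.54 ± 0.05 for hairpin 4 (adjusted p = 1.65e-09). In DMSO libraries it had 24.2, 21.0 and 22.1 CPM, so scrambled libraries lay 0.22 ± 0.05 below them. The inhibitor at 4 µM gave a change of 0.05, with an interval from -0.06 to 0.15. MXD1 overlaps SNRNP27 on the same strand, a gene with 178% of its counts over all libraries, so its own count is uncertain where reads fall on both.

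MXD4 (chromosome 4, 2249159 to 2264021, minus strand) had 21.7, 20.5 and 22.6 CPM in scrambled libraries and rose to 32.2, 30.1 and 30.2 CPM with G9a hairpin 2 and to 30.6, 31.7 and 29.5 CPM with hairpin 3. With SUV39H1 hairpin 4 it was at 30.9, 32.6 and 31.6 CPM, which overlaps the G9a groups, but with hairpin 2 at 24.7, 23.2 and 23.0 CPM. Unlike MYC and TERT, it was thus nearer to scrambled with SUV39H1 hairpin 2 than with any other knockdown hairpin. The change was 0.50 ± 0.05 for each G9a hairpin (adjusted p = 3.93e-08 and 3.92e-08), 0.43 ± 0.05 for SUV39H1 hairpin 4 (adjusted p = 1.6e-07) and 0.04 for hairpin 2, which did not pass (interval from -0.07 to 0.15). With plain library totals hairpin 2 passed at 0.13. The difference between the SUV39H1 hairpins was -0.39 ± 0.05 (adjusted p = 1.73e-06). DMSO libraries had 15.7, 17.5 and 17.6 CPM, so scrambled libraries lay 0.38 ± 0.06 above them, and the 2 and 4 µM groups overlap that range.

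MNT (chromosome 17, 2287354 to 2304412, minus strand), which unlike MXD1 is made in growing and resting cells alike, had the smallest change of the 3 for the G9a and SUV39H1 means. Scrambled libraries had 19.7, 18.7 and 22.1 CPM, and every knockdown library lay above them, from 22.3 CPM with G9a hairpin 2 to 27.9 CPM with SUV39H1 hairpin 4. The change was 0.20 ± 0.06 for the SUV39H1 mean (adjusted p = 0.00574), 0.17 ± 0.06 for the G9a mean (adjusted p = 0.0255) and 0.14 ± 0.07 for G9a hairpin 2, which did not pass (adjusted p = 0.109). These calls rested on single libraries. Without scrambled replicate 2 none of the 5 calls of MNT against scrambled passed, with adjusted p from 0.083 to 0.21, and without scrambled replicate 1 or G9a hairpin 3 replicate 2 those of the G9a mean and of G9a hairpin 3 were lost. Those of SUV39H1 hairpins 2 and 4 were lost without replicate 1 of the former and replicate 3 of the latter. The antisense gene RP1-59D14.1 lies over MNT with 13.1% of its counts.

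To set MYC against its antagonists, levels were divided by gene length (RPKM, CPM per kilobase of summed gene length). In RPKM the order in DMSO libraries was ODC1 126, SRM 100.3, SMS 90.2, MYC 71.6, AMD1 58.7, MAX 15.1, MXD1 3.55, MXD4 2.40, MNT 2.14 and TERT 1.22. MYC thus stood far above each of these 3 antagonists in every group. The MXD-family genes MXI1 and MXD3 are not in the sum below. They had 49.4 and 77.2 CPM in scrambled libraries and fell to 33.3 and 66.1 CPM for the G9a mean. The RPKM of MYC divided by the sum of MXD1, MXD4 and MNT was 11.08, 10.97 and 10.94 in the scrambled libraries and 8.47, 9.04 and 9.02 in DMSO. It was 6.56, 6.40 and 6.28 with G9a hairpin 2 and 6.46, 6.199 and 6.194 with hairpin 3. With SUV39H1 hairpin 2 it was 2.73, 2.74 and 2.68, and with hairpin 4 4.34, 4.08 and 4.02. The order of the hairpin groups was the same in all of their libraries, with scrambled highest, G9a between and SUV39H1 hairpin 2 lowest. The ratio at 4 µM UNC0638 was 8.45, 8.71 and 9.25, which overlaps DMSO. Among the hairpin groups MYC per MAX followed the same order, from a mean of 6.61 ± 0.233 (SD, n = 3) in scrambled to 2.00 ± 0.0727 with SUV39H1 hairpin 2. In that ratio G9a hairpins 2 and 3 (means of 4.92 and 4.97) lay near DMSO (4.75) and not below it. The ratios were not tested. They use 1 summed length per gene whatever isoforms the cells make, so changes between groups are firmer than the ratio itself.

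**Figure D3:**
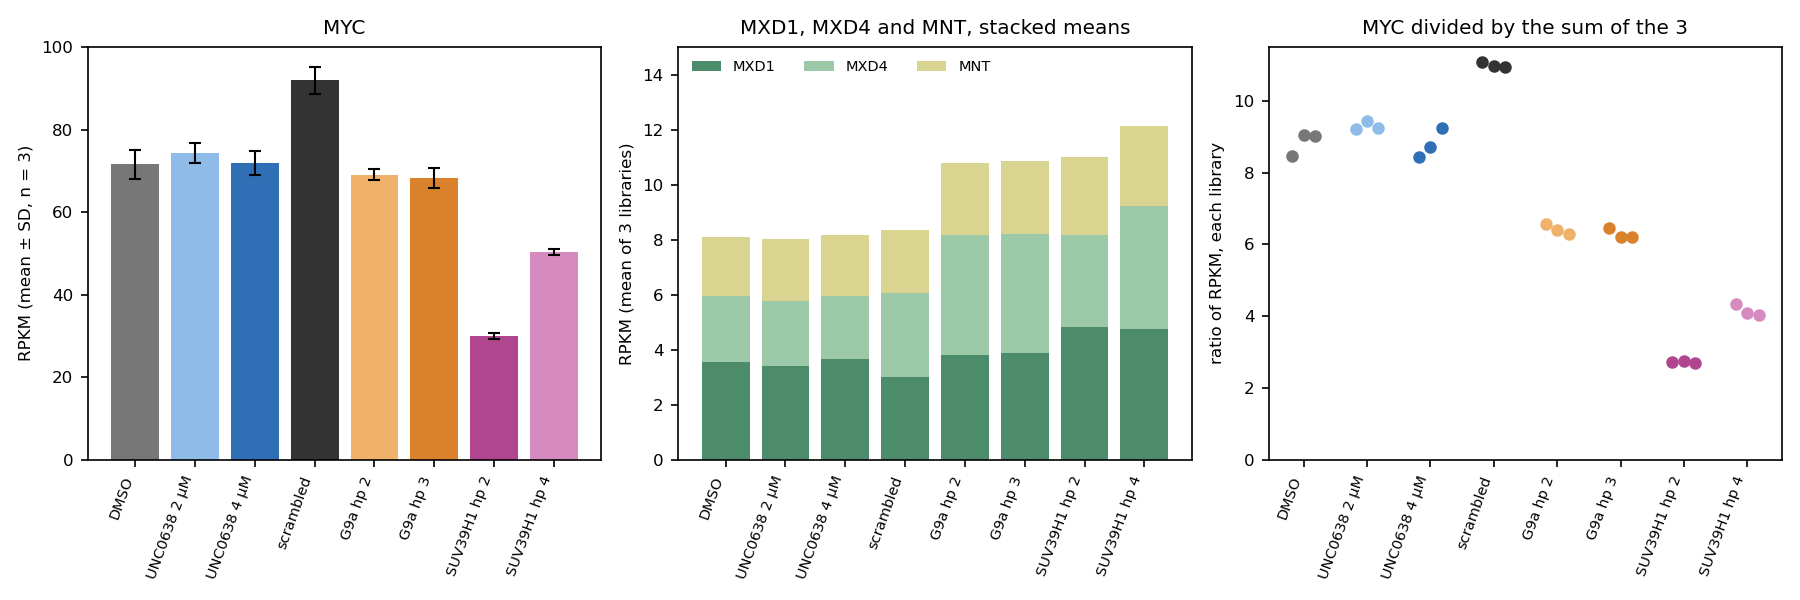
Left, RPKM of MYC (mean and SD of 3 libraries). Middle, stacked mean RPKM of MXD1, MXD4 and MNT. Right, MYC divided by the sum of the 3 in each library. The antagonists together rise from 8.36 RPKM in scrambled to between 10.8 and 12.1 RPKM in the knockdown groups, and the ratio falls from a mean of 10.997 in scrambled to 2.72 with SUV39H1 hairpin 2.

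Of the polyamine enzymes, ODC1 and SRM fell steeply with the SUV39H1 hairpins and little with the G9a hairpins. ODC1 (chromosome 2, 10580094 to 10588630, minus strand) had 509, 524 and 488 CPM in scrambled libraries and 198, 197 and 207 CPM with SUV39H1 hairpin 2. With hairpin 4 it had 308, 303 and 308 CPM, with G9a hairpin 2 484, 502 and 491 CPM and with hairpin 3 464, 474 and 492 CPM. The SUV39H1 groups were clear of all others and of each other, while both G9a groups overlap scrambled. The changes were -1.43 ± 0.04 for SUV39H1 hairpin 2 (adjusted p = 8.7e-22) and -0.86 ± 0.04 for hairpin 4 (adjusted p = 1.11e-16), against -0.08 ± 0.03 for the G9a mean (adjusted p = 0.0309). The G9a call was lost without scrambled replicate 1 or 2 and without 3 of the G9a libraries (adjusted p from 0.051 to 0.21), with plain library totals, with no low-count filter and with the compared libraries alone. The difference between the G9a and SUV39H1 means was 1.062 ± 0.025 (adjusted p = 1.57e-22).

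ODC1 therefore parted from MYC in 1 place. With the G9a hairpins MYC stood at 74.7% of the scrambled CPM and ODC1 at 95.6%. In DMSO libraries ODC1 was at 383, 376 and 365 CPM, and scrambled libraries were 0.47 ± 0.04 higher (adjusted p = 1.52e-10), so the G9a groups stayed above DMSO for ODC1 where they lay near it for MYC. At 2 µM UNC0638 it had 399, 397 and 394 CPM and at 4 µM 388, 386 and 388 CPM. Both doses lay above all DMSO libraries, by 0.08 and 0.06, and neither passed (adjusted p = 0.21 and 0.305).

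SRM (chromosome 1, 11114641 to 11120081, minus strand), spermidine synthase, had 211, 211 and 241 CPM in scrambled libraries, 102, 100.2 and 92.3 CPM with SUV39H1 hairpin 2 and 124, 129 and 137 CPM with hairpin 4. These are changes of -1.26 ± 0.08 (adjusted p = 1.22e-13) and -0.90 ± 0.08 (adjusted p = 1.54e-10), and the hairpins differed by -0.36 ± 0.08 (adjusted p = 0.000441). With G9a hairpin 2 it had 199, 183 and 186 CPM and with hairpin 3 187, 205 and 204 CPM, all below the scrambled libraries. The G9a mean passed at -0.20 ± 0.07 (adjusted p = 0.0121) and hairpin 3 alone did not (-0.16 ± 0.08, adjusted p = 0.088), though it passed with no low-count filter (adjusted p = 0.0052) and with the compared libraries alone (adjusted p = 0.03). Without scrambled replicate 3, the highest, the G9a mean was lost at -0.14 (adjusted p = 0.12). SRM was also among the most variable members within a group, with 168, 196 and 207 CPM in DMSO and 169, 197 and 215 CPM at 4 µM.

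SMS and AMD1 fell with each of the 4 knockdown hairpins, and by less than ODC1 and SRM with the SUV39H1 hairpins. SMS (chromosome X, 21958691 to 22025798, plus strand), spermine synthase, had 244, 245 and 242 CPM in scrambled libraries, and the 12 knockdown libraries lay between 190 and 210 CPM, all below them. The change was -0.32 ± 0.04 for the G9a mean (adjusted p = 5.35e-08), -0.42 ± 0.04 for SUV39H1 hairpin 2 and -0.38 ± 0.04 for hairpin 4. The difference between the SUV39H1 hairpins was -0.04, with an interval from -0.13 to 0.04. G9a and SUV39H1 means differed by 0.08 ± 0.03 (adjusted p = 0.0232), which with plain library totals became -0.02 and was lost. SMS was the 1 member that passed as higher with the inhibitor. It had 264, 283 and 272 CPM at 4 µM against 245, 249 and 235 CPM in DMSO, a change of 0.18 ± 0.04 (adjusted p = 0.00383), higher in 3 of 3 libraries. Against 2 µM, where it had 228, 243 and 254 CPM, the 4 µM group was 0.19 ± 0.04 higher (adjusted p = 0.0183), the 1 member that passed in that comparison beside 1.84% of all genes, a call lost without 4 of the 6 libraries in turn, UNC0638 2 µM replicates 1 and 2 and 4 µM replicates 2 and 3 (adjusted p from 0.057 to 0.15), and with the compared libraries alone.

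AMD1 (chromosome 6, 111195973 to 111216916, plus strand), S-adenosylmethionine decarboxylase, had 247, 252 and 239 CPM in scrambled libraries, 205 to 217 CPM with G9a hairpin 2 and 199 to 206 CPM with hairpin 3. With SUV39H1 hairpins 2 and 4 it had 176 to 189 and 171 to 182 CPM. The changes were -0.27 ± 0.04 for the G9a mean (adjusted p = 6.29e-06), -0.54 ± 0.05 for SUV39H1 hairpin 2 and -0.61 ± 0.05 for hairpin 4, and here hairpin 4 was not the weaker one: the difference between them was 0.07, with an interval from -0.02 to 0.17. With the inhibitor at 4 µM AMD1 had 224, 234 and 214 CPM against 229, 200 and 192 CPM in DMSO, or 0.12 ± 0.05, which did not pass (adjusted p = 0.078). Without DMSO replicate 1, the highest of that group, it passed as higher at 0.20 (adjusted p = 0.00093).

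TERT (chromosome 5, 1253262 to 1295184, minus strand) was the least abundant member and the one with the largest changes. Scrambled libraries held 175, 290 and 208 counts of it, or 5.11, 5.55 and 4.98 CPM. With SUV39H1 hairpin 2 there were 26, 15 and 22 counts, or 0.649, 0.475 and 0.55 CPM, and with hairpin 4 110, 108 and 90 counts, or 2.04, 2.33 and 2.04 CPM. G9a hairpin 2 gave 3.41, 3.24 and 2.91 CPM and hairpin 3 2.71, 2.21 and 2.47 CPM. Every knockdown library lay below every scrambled library, and SUV39H1 hairpin 2 stood apart from all others, at 10.7% of the scrambled CPM.

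The fitted changes of TERT were -3.30 ± 0.13 for SUV39H1 hairpin 2 (adjusted p = 7.2e-18), -1.42 ± 0.09 for hairpin 4 (adjusted p = 7.78e-13), -0.73 ± 0.09 for G9a hairpin 2 (adjusted p = 1.61e-07) and -1.09 ± 0.09 for hairpin 3 (adjusted p = 3.82e-10). The SUV39H1 hairpins differed by -1.88 ± 0.15 (adjusted p = 1.17e-10), the widest gap between hairpins of any member. G9a hairpins 2 and 3 differed by 0.36 ± 0.10, with an interval from 0.16 to 0.56 and no overlap of their libraries, but this did not pass over all genes, of which only 0.00993% did in that comparison.

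TERT was also the 1 member that passed as lower with the inhibitor. It had 4.94, 5.84 and 6.05 CPM in DMSO libraries, 4.75, 4.56 and 4.88 CPM at 2 µM and 3.92, 3.86 and 4.13 CPM at 4 µM. All 3 libraries at 4 µM lay below those at 2 µM, and those below DMSO. The change was -0.49 ± 0.08 at 4 µM (adjusted p = 0.000104) and -0.24 ± 0.08 at 2 µM, which did not pass (adjusted p = 0.0772) except without DMSO replicate 1, the lowest of its group (-0.33, adjusted p = 0.0086). The step from 2 to 4 µM was -0.24 ± 0.09 and did not pass (adjusted p = 0.207). DMSO and scrambled libraries overlap for TERT, unlike for MYC and ODC1, with a difference of -0.07 and an interval from -0.23 to 0.09. The call at 4 µM held under every alternative setting and left-out library.

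The inhibitor and the G9a hairpins act on the same enzyme, and their responses, each against its own control, were compared directly. The 4 µM response of MYC was 0.45 ± 0.06 above that of the G9a hairpins (adjusted p = 2.76e-07), and that of TERT was 0.43 ± 0.11 above it (adjusted p = 0.00314), with both responses of TERT downward. This difference passed for 7 of the 10 members, beside 44.8% of all genes, and the same difference from the SUV39H1 response for 9, beside 57.7%. Between the SUV39H1 hairpins 6 members passed, beside 42.9%: MYC, ODC1, SRM, TERT and MXD4 were lower and MAX was higher with hairpin 2, as were 22.0% and 20.9% of all genes. Between the G9a hairpins none did by edgeR or DESeq2, and 1 had an unadjusted p under 0.05 (TERT). The G9a and SUV39H1 means differed for 9 members, 8 higher with G9a and MXD1 lower, beside 65.5% (32.9% higher and 32.6% lower). With plain library totals the genes called there went from 6624 higher and 6573 lower to 4926 and 8344, and those of the SUV39H1 mean against scrambled from 7077 and 6581 to 8795 and 5057.

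Other genes of the pathways were counted from lists, beside the share of all genes called in the same comparison. Of 32 genes known to be raised by MYC, 31 fell with the SUV39H1 mean and SHMT2 did not pass (-0.04), against 32.7% of all genes lower. That value averages 2 opposite changes of SHMT2, -0.25 with hairpin 2 and 0.17 with hairpin 4. With hairpin 2 all 32 fell, and with hairpin 4 30 fell and 1 rose. Of all genes 67.1% and 60.9% were called there in either direction. Of 20147 genes 6558 were lower with hairpin 2, and 5876 were lower and 6403 higher with hairpin 4. The median change of the 32 genes for the SUV39H1 mean was -0.83, against 0.03 over all genes. Nucleolin (NCL) fell by 1.14 ± 0.03 and the ribosome assembly factor MRTO4 by 1.10 ± 0.03. Cyclin D2 (CCND2) fell by 1.38 ± 0.04 and lactate dehydrogenase A (LDHA) by 0.98 ± 0.03. With the G9a mean 27 of the 32 fell and 1 rose, CAD at 0.18, against 24.9% and 25.0% of all genes lower and higher. There the median was -0.28, CCND2 changed by -0.81 ± 0.04, LDHA by -0.45 ± 0.03, the chaperone HSPD1 by -0.45 ± 0.03 and NOP16 by -0.49 ± 0.03.

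Against that, 12 of these 32 genes rose and 2 fell at 4 µM UNC0638, beside 10.2% and 9.73% of all genes, with a median of 0.07. The examples were small, with HSPD1 higher by 0.19 ± 0.04, MRTO4 by 0.19 ± 0.04 and the kinase CDK4 by 0.17 ± 0.03, and LDHA lower at -0.17 ± 0.04. With the compared libraries alone in the fit, 3 of the 32 passed, all higher, and 1993 of all genes passed, against 4012 in the full fit. The control groups differed too: 23 of the 32 were higher and 3 lower in scrambled than in DMSO libraries, beside 14.9% and 16.5% of all genes, with a median of 0.27.

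Of 8 genes known to be held down by MYC 7 were tested (not NDRG2), and 6 rose and GADD45A fell with the SUV39H1 mean, beside 35.1% of all genes higher. GADD45A changed by 0.03 with hairpin 2 and by -0.38 with hairpin 4. With hairpin 2 6 genes rose and 0 fell, and with hairpin 4 4 rose and 1 fell. Of all genes 67.1% and 60.9% were called there in either direction. Of 20147 genes 6960 were higher and 6558 lower with hairpin 2, and 6403 and 5876 with hairpin 4. All 7 were higher with hairpin 2 than with hairpin 4, beside 20.9% of all genes. CDKN1A, the cell cycle inhibitor p21, went from a mean of 11.6 CPM in scrambled libraries to 86.6 CPM with SUV39H1 hairpin 2 and 42.1 CPM with hairpin 4, or 2.27 ± 0.05 for the mean. CDKN2B, another inhibitor of cell cycle kinases, rose by 1.35 ± 0.08, NDRG1 by 0.81 ± 0.06 and the stress gene GADD45B by 0.29 ± 0.04. With the G9a mean 5 rose, beside 25.0% of all genes, among them CDKN1A (1.10 ± 0.05), CDKN2B (0.68 ± 0.09), NDRG1 (0.52 ± 0.05) and CDKN1B, the inhibitor p27 (0.35 ± 0.05), and GADD45A fell (-0.30). At 4 µM UNC0638, where MYC did not pass, CDKN1A (0.44 ± 0.05) and CDKN2B (0.32 ± 0.10) rose. NDRG1 (-0.70 ± 0.06) and GADD45A (-0.19 ± 0.06) fell there, beside 10.2% and 9.73% of all genes higher and lower. The control groups differed here too: 3 of the 7 were lower and 0 higher in scrambled than in DMSO libraries, beside 16.5% and 14.9% of all genes, with a median of -0.21. NDRG1 had a mean of 278 CPM in DMSO and 63.1 CPM in scrambled libraries. Its 91.3 CPM for the G9a mean and 122 CPM for the SUV39H1 mean thus lay below DMSO.

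**Figure D4:**
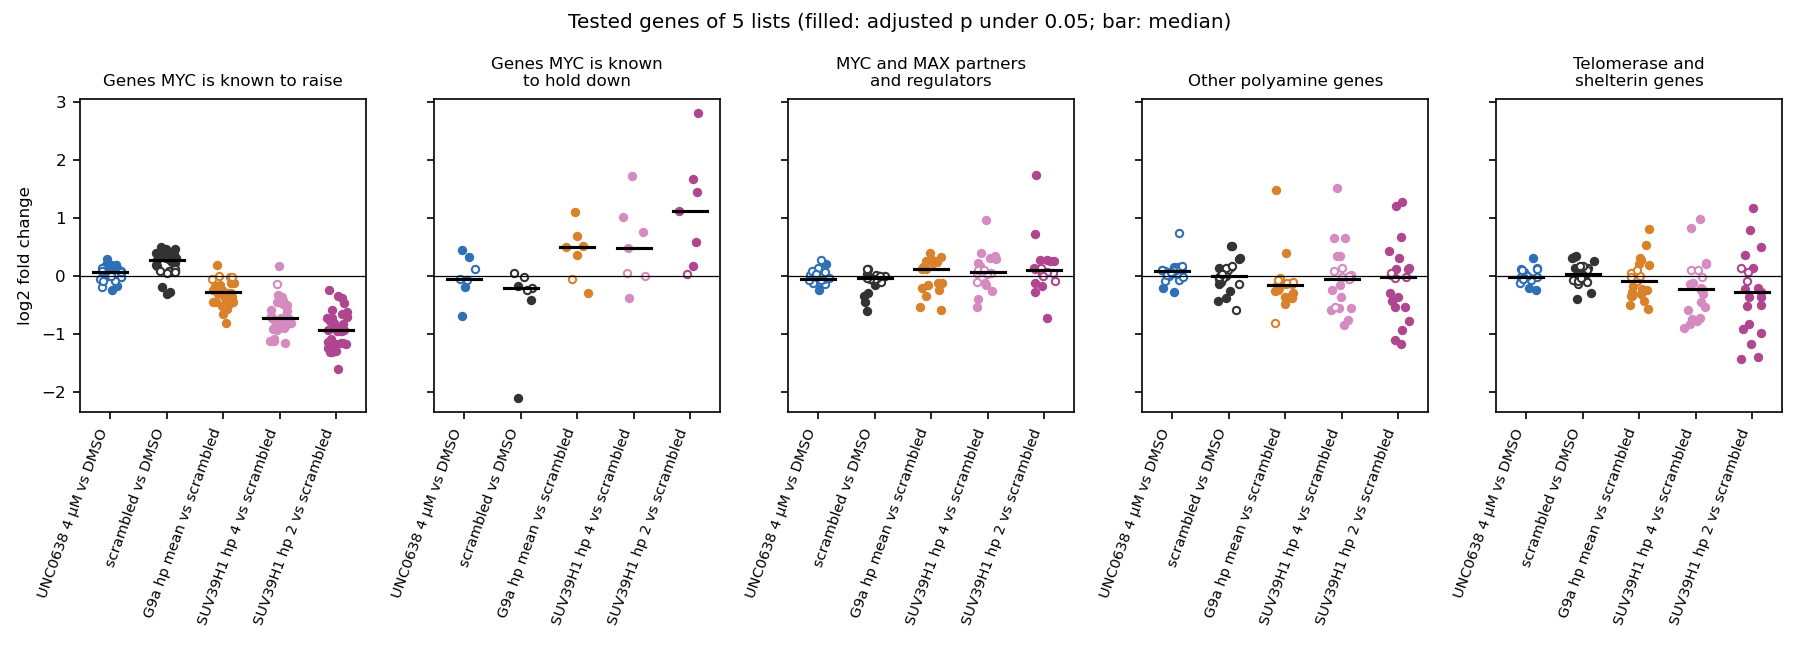
Log2 fold changes of the tested genes of 5 lists in 5 comparisons (points, filled where the adjusted p is under 0.05; bars are medians). The 32 genes that MYC is known to raise have a median of 0.07 at 4 µM UNC0638, 0.27 in scrambled against DMSO, -0.28 with the G9a mean, -0.72 with SUV39H1 hairpin 4 and -0.94 with hairpin 2.

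Among other partners and regulators of MYC and MAX 18 of 20 genes were tested, since MLXIPL and MYCN did not pass the filter. For the SUV39H1 mean 9 rose and 4 fell, and the share of 72.2% called lay near the 67.8% of all genes. For the G9a mean 10 rose and 8 fell, beside 25.0% and 24.9% of all genes. MGA, a MAX partner that represses E-box genes, went from 3.49 CPM in scrambled libraries to 12.5 CPM with SUV39H1 hairpin 2 and 7.54 CPM with hairpin 4, or 1.36 ± 0.08 for the mean. WDR5, a chromatin cofactor of MYC, fell by 0.57 ± 0.04, and the kinase PIM1 (0.33 ± 0.03) and the deubiquitinase USP28, which stabilises MYC protein (0.31 ± 0.04), rose. With the G9a mean FBXW7, the ubiquitin ligase subunit that marks MYC protein for breakdown, rose by 0.40 ± 0.05. The other MXD-family genes went the other way there: MXI1 fell by 0.58 ± 0.05 and MXD3 by 0.24 ± 0.03, and the ligase subunit SKP2 by 0.35 ± 0.04. With 4 µM UNC0638 PIM1 (0.21 ± 0.04) rose while ZBTB17, the MYC partner Miz-1, fell (-0.24 ± 0.06), a share of 11.1% beside 19.9% of all genes. The count became 5 without DMSO replicate 1. Over the libraries left out in turn, all genes called there ranged from 2690 to 5518 (4012 in the full fit).

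In the polyamine pathway outside the members 21 of 24 genes were tested (not AGMAT, PAOX and SLC18B1). For the SUV39H1 mean 6 rose and 8 fell, a share of 66.7% that lay near the 67.8% of all genes. SAT1, the enzyme that acetylates polyamines for breakdown and export, rose by 0.93 ± 0.04, from 57.3 CPM in scrambled libraries to 141 CPM with hairpin 2 and 98.6 CPM with hairpin 4. EIF5A, the factor that carries the spermidine-derived residue hypusine, fell by 0.90 ± 0.04, and so did AHCY (-0.93 ± 0.04) and MAT2A (-0.56 ± 0.03) of the methionine cycle. For the G9a mean 2 rose and 14 fell, beside 25.0% and 24.9% of all genes, and here SAT1 was lower (-0.36) while its paralog SAT2 was higher (0.40 ± 0.04). SLC3A2, a subunit of amino acid transporters (-0.48 ± 0.04), OAZ1, the antizyme that directs ODC1 protein to breakdown (-0.39 ± 0.03), and MAT2A (-0.38 ± 0.03) fell. At 4 µM UNC0638 2 rose, MAT2B (0.15 ± 0.04) and SAT1 (0.16 ± 0.04), and 2 fell, the hypusine enzyme DHPS (-0.21 ± 0.04) and spermine oxidase SMOX (-0.28 ± 0.07). That count of 4, or 19.0% beside 19.9% of all genes, became 9 without DMSO replicate 1 and 2 without replicate 3 of DMSO or replicate 1 of the 4 µM group. The count of all genes also moved over such left-out libraries, from 2690 to 5518.

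Of 22 other telomerase and shelterin genes 21 were tested, all but the telomerase RNA TERC. For the SUV39H1 mean 13 fell and 5 rose, beside 32.7% and 35.1% of all genes. The genes of the H/ACA complex that holds the telomerase RNA were among the lower ones, with DKC1 (-0.86 ± 0.03), NHP2 (-1.04 ± 0.04) and GAR1 (-0.84 ± 0.04), as was the assembly ATPase RUVBL1 (-1.11 ± 0.04). These genes also serve ribosome production. For the G9a mean 10 fell and 6 rose, beside 24.9% and 25.0% of all genes. The assembly factor NAF1 (-0.56 ± 0.04) and NOP10 (-0.51 ± 0.05) fell, and TEP1, a telomerase-associated protein (0.80 ± 0.06), and CTC1, of the complex that ends telomere elongation (0.54 ± 0.05), rose. With 4 µM of the inhibitor NOP10 (0.32 ± 0.06) and RUVBL1 (0.14 ± 0.04) rose and RTEL1 (-0.25 ± 0.06) and CTC1 (-0.20 ± 0.06) fell, so TERT fell there without a fall of DKC1 (0.03, which did not pass). These 4 were 19.0% of the list, beside 19.9% of all genes. Without replicate 3 of the 4 µM group 2 genes passed, and over all left-out libraries the count of all genes ranged from 2690 to 5518.

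Finally, the genes whose group means were most like those of MYC were sought among 13570 genes with a mean of at least 2 CPM, by Pearson's r of log2 CPM over the 8 groups. They were BOP1 (r = 0.9989), LAS1L (0.9967), RFTN1 (0.9966), C10orf2 (0.9965) and GEMIN5 (0.9963). BOP1, a ribosome assembly factor of the list of genes raised by MYC, went from 63.3 CPM in scrambled libraries to 29.7 CPM with SUV39H1 hairpin 2. Among the other members r with MYC was 0.98 for SRM, 0.95 for TERT, 0.93 for ODC1, 0.83 for AMD1, 0.59 for SMS, 0.01 for MAX, -0.29 for MXD4, -0.71 for MNT and -0.90 for MXD1. The genes nearest to ODC1 were TRMT1 (0.9925), PRPF19 (0.9921), COPS3 (0.9911), BCLAF1 (0.9906) and GOLGA8S (0.9892). These are descriptions over 8 group means, which share libraries and depth and are spread mainly by the SUV39H1 groups, and they carry no test.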

How the data were processed

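Groups and replicate numbers came from the labels. The authors deposited raw counts of reads per gene name, and the submitters' processing notes name STAR, featureCounts and hg19 without versions or settings. How reads shared between genes were treated is not stated. Per the labels' protocols, RNeasy columns gave the RNA, and TruSeq RNA v2 libraries carry no strand information. The deposited length of each name, in bases and of no further stated origin, gave RPKM. The repeat table was not used here.

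Genes were kept by filterByExpr (minimum count 10, minimum total 15) and tested with edgeR 4.0.16 in R 4.3.3 (TMM, glmQLFit, glmQLFTest, 1 mean per group, all 24 libraries, Benjamini-Hochberg over 20147 genes). The biological coefficient of variation was 4.63%. Depth was 31545854 to 53803704 counts per library, and no 2 libraries agreed within sampling noise. Alternatives were RLE or library-size scaling, no filter, the replicate number as a block, DESeq2 1.42.0, the compared libraries alone, and leaving out each library.

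The text names all 10 members, the 4 methyltransferase genes, the 4 called genes with the smallest p of each list in the 3 main comparisons, and the 5 genes most like MYC and ODC1. Other genes named (SHMT2, CAD, and SAT1, GADD45A and DKC1 in some comparisons) were picked with their values in view. The members and lists were chosen with earlier results of these data known. MYCL1, MONDOA, MIZ1, CIP2A, AZIN2, STN1 and PECAM1 matched no name, and the older names KIAA1524, ADC and OBFC1 were used where they apply. Some of the listed markers of other cells are not reported here.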

Additional observations from a re-analysis of the deposited data

Results flagged for a closer look

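The response to 4 µM UNC0638 (against DMSO) differed from that to a knockdown (against scrambled) by edgeR's quasi-likelihood test of the difference itself, with Benjamini-Hochberg adjustment over all genes. Against the G9a hairpins, the response to UNC0638 was higher for AMD1 by 0.39 ± 0.06 (log2, SE; adjusted p = 1.78e-05), MYC by 0.45 ± 0.06 (2.76e-07), ODC1 by 0.14 ± 0.05 (0.02), SMS by 0.50 ± 0.06 (7.32e-08) and TERT by 0.43 ± 0.11 (0.00314), and lower for MXD1 at -0.30 ± 0.07 (0.000992) and MXD4 at -0.56 ± 0.08 (1.25e-06).

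Against the SUV39H1 hairpins it was higher for AMD1 by 0.69 ± 0.06 (6.23e-10), MAX by 0.15 ± 0.05 (0.0147), MYC by 1.37 ± 0.06 (1.17e-16), ODC1 by 1.197 ± 0.05 (5.28e-17), SMS by 0.58 ± 0.06 (2.02e-09), SRM by 1.11 ± 0.10 (5.37e-10) and TERT by 1.87 ± 0.13 (2.55e-12), and lower for MXD1 at -0.52 ± 0.07 (4.93e-07) and MXD4 at -0.29 ± 0.08 (0.00173). Of all genes 57.7% passed this test. The responses have different controls, and MYC, ODC1, AMD1, SRM and MXD4 were higher and MXD1 lower in scrambled than in DMSO libraries. Which of the lentiviral handling, the selection or the time of harvest goes with that gap cannot be told apart.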

How the results depend on the processing

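Of 150 member values in the comparisons 92 passed, and 76 of these passed in the same direction under every alternative. Depth and 3 libraries per group limit changes near the 4.63% spread between libraries.

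The fit on the compared libraries alone has fewer residual degrees of freedom and also redoes the filter, the scaling and the estimate of the spread. With it 1993 genes passed at 4 µM UNC0638 (4012 in the full fit), 717 at 2 µM (1444), 236 between the doses (371, with 0 members) and 1 between the G9a hairpins (2). At 4 µM the lists then gave 1 partner, 1 polyamine, 2 telomerase, 3 raised and 2 held-down genes. With no filter the partners gave 4 at 4 µM and the G9a hairpins 11 genes. The cause of these moves was not tested.

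Signs also turned, and among these values SMS between the G9a and SUV39H1 means had passed in the full fit. With library totals these were MAX with G9a hairpin 2 (0.0134), SMS between G9a hairpins (0.00948), MNT between SUV39H1 hairpins (-0.0276) and SMS between the G9a and SUV39H1 means (-0.0156). With no filter they were MAX with G9a hairpin 2 (0.000398) and SUV39H1 hairpin 2 (-0.00465), SMS between G9a hairpins (0.00179) and MNT between SUV39H1 hairpins (-0.0231). MXD4 between G9a hairpins turned with RLE (-0.000325) and DESeq2 (-0.000319), and SMS there with the compared libraries alone (0.00164). Library totals also moved the split of calls for SUV39H1 hairpin 4 from 6403 higher and 5876 lower to 8503 and 4057, and for the 4 µM against the SUV39H1 response from 5667 and 5965 to 4348 and 7472. With them MAX lost its call between the G9a and SUV39H1 means (0.0026) and in the 4 µM against the SUV39H1 response (0.04).

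Leaving out each library in turn moved counts over these ranges. At 4 µM all genes called ranged from 2690 to 5518 (4012 in the full fit), partners from 2 to 5, polyamine genes from 2 to 9 and telomerase genes from 2 to 6. At 2 µM all genes ranged from 995 to 2197 (highest without DMSO replicate 1) and members from 0 to 1. Between doses all genes ranged from 215 to 276 and members from 0 to 1, and between G9a hairpins all genes from 0 to 2.

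Values that changed sign when a library was left out ranged as follows, none of them past the threshold in the full fit. At 4 µM they were MYC (-0.0276 to 0.0467), MNT (-0.0121 to 0.105) and SRM (-0.0573 to 0.124). At 2 µM they were MAX (-0.00958 to 0.0333), MXD4 (-0.0784 to 0.0113), MNT (-0.00477 to 0.137), SRM (-0.0168 to 0.136), SMS (-0.0442 to 0.0349) and AMD1 (-0.0287 to 0.101). Between doses they were MXD4 (-0.0877 to 0.0181), MNT (-0.0716 to 0.0325) and SRM (-0.126 to 0.0549). Against scrambled they were MAX with the G9a mean (-0.0350 to 0.0103), with G9a hairpin 2 (-0.0301 to 0.0213) and with SUV39H1 hairpin 2 (-0.0215 to 0.0397), and MXD4 with the last (-0.00325 to 0.0715). Between G9a hairpins they were MYC (-0.0160 to 0.0206), MAX (-0.00302 to 0.0423), MXD1 (-0.0739 to 0.00697), MXD4 (-0.0306 to 0.0260) and SMS (-0.0334 to 0.0535). The others were MNT between SUV39H1 hairpins (-0.0490 to 0.0749) and between the G9a and SUV39H1 means (-0.0515 to 0.0174), and TERT in scrambled against DMSO (-0.151 to 0.00216). SRM in scrambled against DMSO lost its call without DMSO replicate 1 (0.17) or scrambled replicate 3 (0.18), SRM with G9a hairpin 2 without scrambled replicate 3 (-0.18), and SMS between the G9a and SUV39H1 means without G9a hairpin 3 replicate 3 (0.06). The difference of ODC1 between the 4 µM and the G9a response was lost without DMSO replicate 3 or scrambled replicate 1 or 2, and with no filter.

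The replicate numbers paired the libraries only in part. Of 28 pairs of groups 1 had every same-number correlation of deviations over 0.1. The correlations ran from -0.24 to 0.42, and 14 of 24 libraries correlated best with their own number. Same-number correlations averaged 0.25 for DMSO with 2 µM, 0.23 for DMSO with 4 µM and 0.16 for 2 with 4 µM. Those of unlike numbers averaged -0.12, -0.12 and -0.08. For DMSO with G9a hairpin 2 it was the reverse, at -0.12 against 0.06. The main fit leaves the replicate number out. With the replicate number as a block 4642 genes passed at 4 µM, and partners gave 5 and polyamine genes 8. AMD1 at 4 µM (0.12, adjusted p = 0.044), SRM with G9a hairpin 3 (-0.16, adjusted p = 0.039) and SRM in the 4 µM against the G9a response (0.23, adjusted p = 0.026) passed with it, and no call of a member was lost.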
